A study of Drosophila melanogaster with 2 samples.

Results

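In whole Drosophila melanogaster embryos, Awh bound 1262 regions that lay inside an intron and close to a gene start, out of 4781 bound regions in all (26.4%). They were taken by position from the authors' thresholded list. Peaks of the strict list built from both replicates were merged where they overlapped, the summit of the strongest peak was kept, and a region was counted when that summit lay more than 500 and at most 5000 bp from the nearest start of a protein-coding transcript, inside a protein-coding gene and in no exon of one. The closest summits were 501 bp from a start and the farthest 5000 bp, with a median of 1773 bp (quartiles 1010 and 3073 bp). Signal entered only through the threshold of that list and the choice of the strongest peak's summit. At the near edge of this range, the 54 intronic regions up to 100 bp outside it had a median signal of 122 and the 73 up to 100 bp inside it one of 123. At the far edge, the 20 regions up to 100 bp inside had 124 and the 12 up to 100 bp outside had 93.6.

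The measurements come from chromatin immunoprecipitation and sequencing (ChIP-seq) of embryos collected over 0 to 24 h from a transgenic strain whose Awh is fused to enhanced green fluorescent protein. There is 1 group with 2 biological replicates. The labels name possible controls, but no control library was analysed here. Whether the authors' peak caller already set its signal values against them is unknown. One label field gives the immunoprecipitating antibody as anti-GFP and another names Awh. The labels do not state which regulatory sequences drive the fusion, nor its level relative to untagged Awh. Every cell type of the embryo was pooled, so binding in few cells and weak binding in many cannot be told apart. The files hold peak positions and a signal value per peak, and the read depth is unknown.

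Awh (Arrowhead) belongs to the LIM-homeodomain family of transcription factors and is needed to form imaginal precursors of the adult, among them the histoblasts of the abdomen. LIM-homeodomain proteins contact DNA through the homeodomain, whose usual core is TAATTA, and through their LIM domains they join cofactors such as Chip. Introns close to a start, above all the first intron, are common places for enhancers in flies, and many genes also have alternative starts that make a stretch intronic in one transcript and upstream of another.

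No region on the large autosomal arm that holds HmgZ was considered for the sequences printed here and below. The sequences of 4 regions are shown because they carry the patterns described further on. They are the strongest region, the strongest considered with ACAGTG within 100 bp, and the strongest pair in Awh itself. Each is the 201 bases centred on the summit, on the plus strand of dm6 as given by RefSeq, and capitals mark TAATTA and ACAGTG on either strand (CACTGT where ACAGTG lies on the other strand).
CG11050, chr2L:6612620-6612820, plus strand: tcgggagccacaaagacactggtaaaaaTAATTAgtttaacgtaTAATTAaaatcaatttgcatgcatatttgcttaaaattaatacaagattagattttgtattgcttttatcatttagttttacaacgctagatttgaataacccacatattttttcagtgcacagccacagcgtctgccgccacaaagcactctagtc
NFAT, chrX:13640416-13640616, plus strand: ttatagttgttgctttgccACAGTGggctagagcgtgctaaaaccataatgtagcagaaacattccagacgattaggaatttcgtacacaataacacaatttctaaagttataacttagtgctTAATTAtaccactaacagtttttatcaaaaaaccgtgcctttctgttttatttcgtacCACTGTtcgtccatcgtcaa
Awh, chr3L:3850577-3850777, plus strand: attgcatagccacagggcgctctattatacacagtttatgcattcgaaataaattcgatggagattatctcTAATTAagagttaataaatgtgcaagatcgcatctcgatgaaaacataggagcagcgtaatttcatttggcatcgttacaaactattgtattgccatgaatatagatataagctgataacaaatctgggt
Awh, chr3L:3849875-3850075, plus strand: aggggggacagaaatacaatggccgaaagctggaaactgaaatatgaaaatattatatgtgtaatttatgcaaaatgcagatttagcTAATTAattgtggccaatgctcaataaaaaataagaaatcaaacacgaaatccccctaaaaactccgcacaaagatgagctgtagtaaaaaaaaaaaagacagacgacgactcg

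The CG11050 window holds TAATTA in 2 places, both more than 50 bp from the summit, and no ACAGTG. It also holds ACACTG, not marked by capitals, a hexamer described further on. The signal of CG11050, 1420, was the highest of all intronic regions near a start (806 in replicate 1 and 595 in replicate 2). Its summit lies in the second intron, only 140 bp long, and 1033 bp from the start. The region, 309 bp wide, and the printed window are both longer than this intron and reach beyond it. NFAT, a transcription factor of the Rel-homology family, had a signal of 572 (283 and 293) and holds ACAGTG once on each strand, to either side of 1 TAATTA. The Awh windows, with signals of 314 and 220, hold 1 TAATTA each and no ACAGTG.

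The next stretches show ACAGTG, the hexamer that differed most between summits and flanks. They come from 5 of the 6 strongest regions outside the arm that holds HmgZ, with ACAGTG within 100 bp of the summit. Each is 41 bases on the strand that reads ACAGTG, in capitals. Where a window held more than 1, the one closest to 80 bp from the summit was taken.
NFAT, chrX:13640417-13640457, plus strand: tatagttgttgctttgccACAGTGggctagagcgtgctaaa
norpA, chrX:4325048-4325088, minus strand: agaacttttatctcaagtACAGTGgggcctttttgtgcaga
Raf, chrX:2297779-2297819, minus strand: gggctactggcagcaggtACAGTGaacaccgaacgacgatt
for, chr2L:3655706-3655746, plus strand: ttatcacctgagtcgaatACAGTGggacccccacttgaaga
prage, chrX:1830651-1830691, plus strand: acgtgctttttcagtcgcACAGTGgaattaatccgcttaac

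In 4 of these 5 the base after the hexamer is G, and 4 of the 5 lie on the X chromosome. With the arm that holds HmgZ left out, this share on X does not describe the strongest regions of the whole genome. Read on this strand, the middle of the hexamer lay at -87.5 to -78.5 bp from the summit in all 5. The host genes encode NFAT, the phospholipase C of phototransduction (norpA), the MAP kinase kinase kinase Raf, the cGMP-dependent protein kinase foraging (for) and prage. Their signals were 572, 569, 561, 506 and 482.

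The other set is 5 of the 6 strongest regions outside the arm that holds HmgZ, with TAATTA, in capitals, within 20 bp of the summit. Over all arms, regions with TAATTA this close numbered 66 of 1262 (5.23%). Each stretch is the 41 bases centred on the summit, on the plus strand.
Pak3, chr3R:16449381-16449421, plus strand: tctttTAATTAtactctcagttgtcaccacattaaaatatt
mol, chr2L:14995966-14996006, plus strand: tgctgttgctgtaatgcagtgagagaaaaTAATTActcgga
eff, chr3R:14738647-14738687, plus strand: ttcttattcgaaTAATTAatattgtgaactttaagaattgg
CG9837, chr3R:8810600-8810640, plus strand: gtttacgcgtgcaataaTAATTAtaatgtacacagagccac
subdued, chr3R:19641852-19641892, plus strand: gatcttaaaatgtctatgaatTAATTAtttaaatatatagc

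These lie in genes for the p21-activated kinase Pak3, moladietz (mol), the ubiquitin-conjugating enzyme effete (eff), CG9837 and the anoctamin subdued. Their signals were 332, 306, 282, 281 and 246, and all 5 sit in a first intron. ACAGTG was sought within 100 bp and TAATTA here within 20 bp, so the signals of the sets are not comparable. Within 100 bp, TAATTA also occurred in CG11050, the strongest region, with 1420.

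Binding thinned with distance from the start. Per Mb of intron that could qualify, there were 78.1 regions between 500 and 1000 bp (95% exact Poisson interval 69.7 to 87.3), 65.8 between 1000 and 1500 bp (57.5 to 75.03) and 58.8 between 1500 and 2000 bp (50.4 to 68.2). Beyond 2000 bp the density lay between 42.8 and 48.5 in every 500-bp bin, and the intervals of those 6 bins overlap. Over the whole range it was 56.3 per Mb (53.2 to 59.5) on 22.4 Mb, against 27.1 (25.3 to 29.0) in intron more than 5000 bp from a start and 36.6 (33.5 to 39.9) in intergenic sequence at the same 500 to 5000 bp. Intervals cover counting error only, and regions of 1 gene are not independent.

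**Figure D1:**
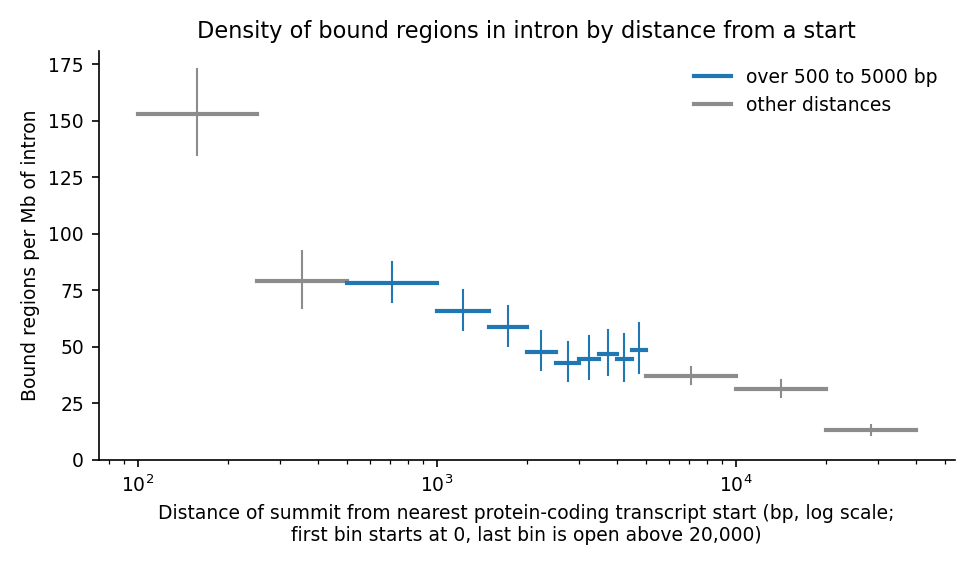
Bound regions per Mb of intron (vertical axis) against the distance of the summit from the nearest protein-coding start in bp (horizontal axis, log scale). Horizontal lines span the distance bins and vertical lines are exact 95% Poisson intervals. The blue bins, the regions described here, fall from 78.1 to between 42.8 and 48.5 per Mb, and lie between the bins nearer the start and those beyond 5000 bp.

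Density was similar on the large chromosome arms, from 50.1 per Mb on 2L (43.4 to 57.6) to 60.9 on 3L (53.9 to 68.7), with 52.7 on X (46.2 to 59.9). Chromosome 4, a small and largely heterochromatic chromosome, had 0 regions on 0.281 Mb of qualifying intron, which allows up to 10.7 per Mb when a count of 0 is taken to allow 3 (exact 95% Poisson upper limit 13.1). It was thin in the replicates' full candidate lists as well, with 112 of 118176 peaks in replicate 1 (0.0948%) and 133 of 89289 in replicate 2 (0.149%) on 1.01% of the length. The median signal was 123 on X and between 102 and 107 on the 4 large autosomal arms.

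First introns held most of the regions. In the host transcript whose intron was assigned, 896 summits (71.0%, 95% Wilson interval 68.4 to 73.4%) lay in the first intron, where 54.3% of qualifying intron bases lie. The second intron had 266 (21.1%, beside 24.4% of bases) and later introns 100 (7.92%, beside 21.3%). With the longest transcript of each host gene instead, the first intron had 55.3%, beside 42.9% of bases. Of the summits, 757 (60.0%) lay downstream of the nearest start and that start belonged to a host gene, close to the 57.8% of bases so placed. Another 311 (24.6%, 22.4 to 27.1%) lay upstream of an alternative start of a host gene, beside 16.2% of bases, and for 194 (15.4%, 13.5 to 17.5%) the nearest start belonged to another gene, beside 26.0% of bases. The rule partly sets these positions, so they carry no test. Of the 1262, 30 lay within 500 bp of the start of a noncoding transcript, 79 lay inside more than 1 protein-coding gene and 4 windows overlapped an annotated transposable element.

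Signals ran from 4.36 to 1420, with quartiles of 81.8, 106 and 152. In the replicates' own candidate lists the median was 52.8 in replicate 1 and 54.3 in replicate 2. Over the 1254 regions with a candidate in both, the median log2 ratio of replicate 1 over 2 was 0.02 with an SD of 0.49, and Spearman's rho was 0.645 across regions that share the same libraries, given as a description. Of the 1262, 547 (43.3%, 40.6 to 46.1%) lay in both replicates' own thresholded lists, with a median signal of 162. Another 159 were only in the list of replicate 1 (95.7), 237 only in that of replicate 2 (94.0), and 319 (25.3%) in neither (74.5).

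Presence in both lists was more frequent than among intronic regions farther away, of which 37.9% (34.6 to 41.3%) qualified (exact 2-sided Fisher test, Benjamini-Hochberg adjusted over 3 comparisons, p = 0.0208), although among the stronger 50% of regions the difference, 79.8 against 75.8%, did not pass (adjusted p = 0.229). It was less frequent than at starts, where 50.2% (47.7 to 52.7%) qualified (exact Fisher test, adjusted p = 0.0009). For intergenic regions at the same distances, 41.3% (37.2 to 45.6%), no difference passed (exact Fisher test, adjusted p = 0.46). Median signal was 113 at starts, 106 in the introns described here, 104 in far intergenic, 102 in near intergenic and 100.4 in far intronic regions. These tests treat regions as units and compare lists from the same pair of embryo collections.

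**Figure D2:**
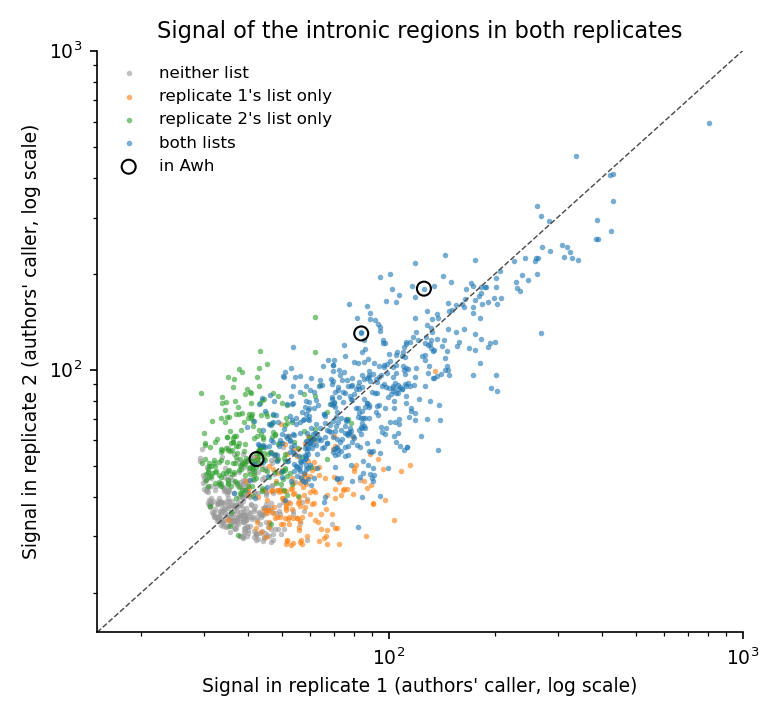
Signal of each intronic region in replicate 1 (horizontal) and replicate 2 (vertical) on log scales, in the units of the authors' peak caller. Each point is a region, 1254 in all, with candidates in both replicates, coloured by which replicate's own thresholded list holds it, and the dashed line marks equal signals. Open circles mark the 3 regions in Awh, all with a higher signal in replicate 2.

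The strongest regions lay in genes of varied function. After CG11050, the region of CG32772 (chrX:4910251-4910493) had 858, from 432 and 410 in replicates 1 and 2. Tlk, which encodes the chromatin-associated Tousled-like kinase (chrX:3742094-3742339), had 832, from 422 and 407. The region in cno, the gene of the junction protein Canoe (chr3R:5215396-5215658), had 802 and was 1 of 4 among the 20 strongest with the higher value in replicate 2 (338 and 467 in replicates 1 and 2). InR, which encodes the insulin receptor, had 605 (262 and 326), its summit 661 bp upstream of one of its alternative starts.

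Regulators were also among the 20 strongest. Adf1, a Myb-domain transcription factor, had a signal of 716 (429 and 338), and HmgZ, which encodes a high-mobility-group chromatin protein, 696 (424 and 272). Trl, the gene of GAGA factor, had 642 (386 and 256.4) in its second intron. Further down the same order, ImpL2, a secreted binder of insulin-like peptides, had 554 (308 and 246), CHES-1-like, a forkhead factor, 541 (344 and 220) and mub, a KH-domain RNA-binding protein, 529 (287 and 235). Among the 20 strongest regions present in both lists, the log2 ratio of replicate 1 to 2 ranged from -0.46 in cno to 0.64 in HmgZ and CHES-1-like, beside an SD of 0.49 over all 1254. The summits of all 20 lay in a first or second intron, and none of the 20 had a copy elsewhere in the genome.

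The 1262 regions lay in 843 genes, 9.28% (8.70 to 9.90%) of the 9080 protein-coding genes with qualifying intron. A single region was found in 600 of these genes, 150 had 2, 53 had 3 and 40 had 4 or more. In 178 introns at least 2 regions shared the same intron, 423 in all, with a median gap of 1297 bp between neighbours. Hosting rose with the amount of intron: 0.653% of genes with up to 1 kb hosted a region and 48.1% of those with over 10 kb, whereas per Mb the density was 24.4 up to 1 kb and between 54.6 and 67.6 in the longer classes.

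CHES-1-like had the most regions, 11, all in 1 first intron, with signals of 66.5 to 541 and a median of 100.6. Tlk had 9 (77.9 to 832), rols, whose product Rolling pebbles acts in myoblast fusion, 8 (70.3 to 242), and 3 genes had 7: CG1677 (90.2 to 215), shn, a zinc-finger effector of Dpp signalling (56.5 to 412), and CG43658 (71.6 to 174). Another 4 genes had 6: Btk, sick, which acts on the actin cytoskeleton, siz, an Arf guanine exchange factor, and Svil, the supervillin gene. Only some of each gene's regions were in both replicates' lists, 6 of 11 for CHES-1-like, 4 of 9 for Tlk and 3 of 8 for rols. CHES-1-like has 15.9 kb of qualifying intron and sick 69.4 kb.

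Awh itself had 3 such regions in 4.46 kb of qualifying intron, all in its first intron of 11194 bp on chromosome 3L, and 6 more intronic regions farther from a start. The strongest (chr3L:3850611-3850713, 4471 bp from the start) had a signal of 314, from 126 in replicate 1 and 180 in replicate 2. The region at chr3L:3849810-3850139, 3769 bp from the start, had 220, from 83.7 and 130, and TAATTA within 20 bp of its summit. The third, at chr3L:3847888-3848217 and 1847 bp from the start, had 89.6, from 42.4 and 52.5, and was in the list of replicate 2 only. All 3 were higher in replicate 2, by 0.31 to 0.63 on the log2 scale. The strain's label describes its insertion as aimed at Awh.

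Signalling genes stood at the high end of the 10 gene lists examined. Of 56 genes of the EGF, FGF, Notch, Wnt, Hedgehog and Dpp pathways with qualifying intron, 26 (46.4%) hosted 45 regions, 102.4 per Mb (74.7 to 137), beside 56.3 per Mb over all genes, and 91.8 (65.0 to 126) without shn. The strongest were in aos, which encodes the secreted EGF receptor antagonist Argos, with 415 (231 and 180 in replicates 1 and 2), in shn with 412 (234 and 177) and in Mad, the Smad of Dpp signalling, with 405 (201 and 193). Developmental transcription factors without a homeodomain had 42 regions in 20 of 66 genes, 87.2 per Mb (62.8 to 118). Without CHES-1-like and its 11 regions the value was 66.6 (45.2 to 94.5), an interval that takes in 56.3. Leaving out the gene with most regions of a list was a choice made after seeing the data. The largest signals there were 2 in CHES-1-like, 541 and 327, and 1 in ush, the Friend-of-GATA cofactor U-shaped, with 340 (150 and 189).

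Muscle genes had 84.2 per Mb (50.7 to 131), with 7 of 31 genes hosting 19 regions, and 55.5 (27.7 to 99.3) without rols and its 8. Both intervals take in 56.3. The strongest was in Msp300, the nesprin that anchors muscle nuclei, with 319 (193 and 121), then rols with 242 and mew, an integrin alpha subunit, with 162. Ecdysone-response genes (69.2 per Mb, 39.5 to 112), neuronal RNA-binding genes (66.3, 42.5 to 98.7), epithelial polarity genes (59.2, 30.6 to 103) and homeodomain genes (40.6, 22.7 to 67.0) likewise had intervals that take in the 56.3 of all genes. Named examples were Eip63E, Eip78C and Eip75B in the ecdysone list, with 311, 158 and 151. The RNA-binding list was led by mub and by brat, the gene of the translational repressor Brain tumor, with 470. In the polarity list crb, the apical determinant Crumbs, had 148 and bib, Big brain, 142, well under cno. Apart from Awh, the strongest in the homeodomain list was in zfh1, with 209.

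The lowest densities among the lists of more than 1 region were in neuronal channel and synapse genes and in axon guidance and adhesion genes. Channel and synapse genes had 7 regions in 6 of 53 genes, 15.9 per Mb (6.39 to 32.7), and axon guidance and adhesion genes 21 regions in 12 of 65 genes, 27.8 per Mb (17.2 to 42.6), both intervals below 56.3, also without Ih and without Sema5c, their genes with most regions. Their median qualifying intron per gene, 5.24 and 5.37 kb, was like that of the signalling list, 5.15 kb. The strongest members were in Nmdar1, an NMDA receptor subunit, with 240 (77.5 and 160), dnc, the cAMP phosphodiesterase Dunce, with 166, and Ih, a hyperpolarization-gated channel, with 133. In the guidance list they were in NetB, a netrin, with 289, hbs with 280 and kirre with 253, the last pair being immunoglobulin proteins of myoblast fusion. Proteasome and translation genes had 1 region, in eIF5B (129), on 0.0248 Mb. The lists were assembled with earlier results of these data known, and these are counts beside the whole, with no test.

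**Figure D3:**
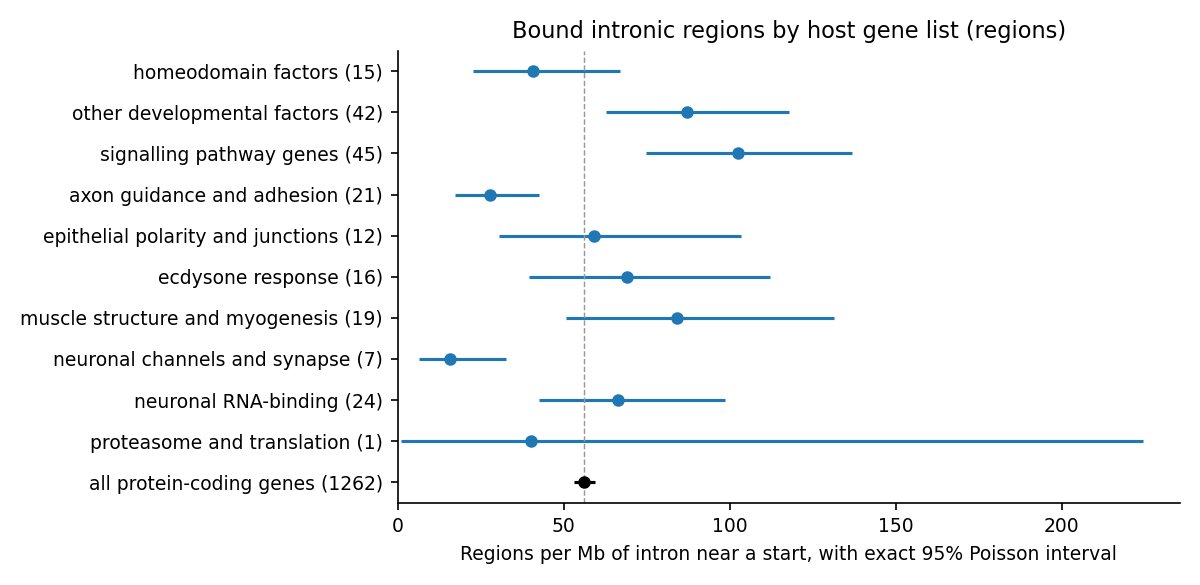
Bound intronic regions near a start per Mb of qualifying intron (horizontal axis) for 10 lists of host genes and for all protein-coding genes (black), with exact 95% Poisson intervals. Numbers of regions are in parentheses and the dashed line marks 56.3 per Mb. The intervals of signalling genes and other developmental factors lie to the right of the line, the latter only with CHES-1-like counted, and those of axon guidance genes and neuronal channels to the left.

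The sequence at the summits was compared with that of introns close by. For 1133 of the 1262 regions, a window of the same 201 bases centred 1000 bp away lay wholly in intron of the same kind, and each of 2080 hexamers (both strands together) and 8 other fixed sites was tested by an exact 2-sided sign test with Benjamini-Hochberg adjustment over all 2088. At an adjusted p under 0.05, 28 (1.34%) were more frequent at summits and 21 (1.01%) more frequent in flanks. Mean GC content was 38.8% at summits and 39.7% in flanks. Of the flanks, 41 were centred within 500 bp of a start and 89 overlapped a bound region.

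ACAGTG, printed in the stretches from NFAT to prage, had the lowest p of all. It also leads over the whole set of bound regions, of which these are a part, so its lead here is no independent support. It occurred in 19.8% of windows at summits and in 7.33% of flank windows (adjusted p = 6.25e-15, exact sign test), beside 7.42% of 98167 windows of the same length tiled over all qualifying intron. ACACTG followed, with 14.7% against 6.18% (exact sign test, adjusted p = 5.13e-08) and 6.93% of tiled windows. Either of the pair was present in 30.7% of the summit windows and 12.5% of tiled windows. Both held in the lists of either replicate alone: ACAGTG had 19.7 against 8.57% without replicate 1 and 22.6 against 8.49% without replicate 2.

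Some other hexamers overlap this pair at a shift of 1 base. CAGTGG (16.1 against 8.65%, exact sign test, adjusted p = 4.08e-05) and ACTGTA (14.2 against 7.77%, adjusted p = 0.000212) adjoined an ACAGTG, shifted by 1 base, in 60.7% and 57.2% of the windows that held them. CACTGA and AGTGTA adjoined an ACACTG in 42.0% and 43.8%. GTACAC, at 10.2 against 4.24% (exact sign test, adjusted p = 1.84e-05), and the AT-only TATTAA, at 27.0 against 17.8% (adjusted p = 5.79e-05), and AATTAA, at 37.9 against 29.5% (adjusted p = 0.00303), adjoined neither. By exact sign test, CAGTGC (14.9 against 7.06%, adjusted p = 3.19e-06) lost its call without replicate 1 (adjusted p = 0.218), CAGTGG without replicate 2 (adjusted p = 0.181), ACACTA without replicate 1 (adjusted p = 0.0666), and CACTGA and CACTGC without either (adjusted p from 0.0679 to 0.696).

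Fewer summits than flanks held TGGCAA (13.8 against 21.2%, adjusted p = 0.00108 by exact sign test), GCAAAA (17.5 against 24.9%, adjusted p = 0.00286), ATGCGG (3.97 against 8.30%), ATCCTC (1.59 against 4.77%), ATTTCG (13.95 against 20.6%) and CGAGGA (1.85 against 5.03%). Calls for GCAAAA and for ATCCTC and ATTTCG held without either replicate. In the same exact sign tests TGGCAA and ATGCGG lost theirs without either (adjusted p from 0.0502 to 0.288) and CGAGGA without replicate 1 (adjusted p = 0.164).

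The homeodomain core TAATTA was found in 20.04% of summit windows, 14.8% of flanks and 15.5% of tiled windows. With 100 bp on either side this did not pass the exact sign test (adjusted p = 0.0569), but within 50 bp it did, at 14.2 against 7.77% (adjusted p = 0.000755), where it ranked 3 among hexamers higher at summits. ACAGTG behaved the other way round, and within 50 bp, at 7.25 against 4.72%, it did not pass (exact sign test, adjusted p = 0.227). AATATT, a palindrome of the same bases that is no known homeodomain core, was at 25.4 against 20.2% (adjusted p = 0.105 by exact sign test), and within 50 bp at 15.6 against 10.7% (adjusted p = 0.079). GAGAG, the motif of GAGA factor, was at 26.7 against 20.04% (adjusted p = 0.00984 by exact sign test), a call lost without replicate 1 (adjusted p = 0.198) and without replicate 2 (adjusted p = 0.846). None of the other 16 fixed sites passed.

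Where the sites lay relative to the summit also differed. TAATTA was densest within 50 bp of the summit (29.6 sites per 1000 regions per 20 bp, against 14 beyond 150 bp). The control AATATT was too, at 37.2 within 50 bp and 14.9 beyond 150 bp. ACAGTG peaked 80 to 100 bp before the summit, at 53.1 per 1000 regions in that 20-bp bin. Between 50 and 110 bp from the summit, 194 sites lay before it and 56 behind it as read on the hexamer's own strand, so 77.6% (72.0 to 82.3%) point toward the summit, and 153 of 305 (50.2%) lay on the sense strand of the host gene. In introns more than 5000 bp away 90 lay before and 24 behind (79.0%, 70.6 to 85.4%), and at starts 173 before and 62 behind (73.6%, 67.6 to 78.8%). ACACTG had the same arrangement in the introns near a start, with 118 before and 35 behind (77.1%, 69.9 to 83.1%). In the far introns it had 73 before and 30 behind (70.9%, 61.5 to 78.8%). At starts the lean was smaller, with 117 before and 79 behind (59.7%, 52.7 to 66.3%). Of the windows with ACAGTG, 198 held 1 site and 52 held more. These positions describe a hexamer chosen from the same windows and carry no test.

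**Figure D4:**
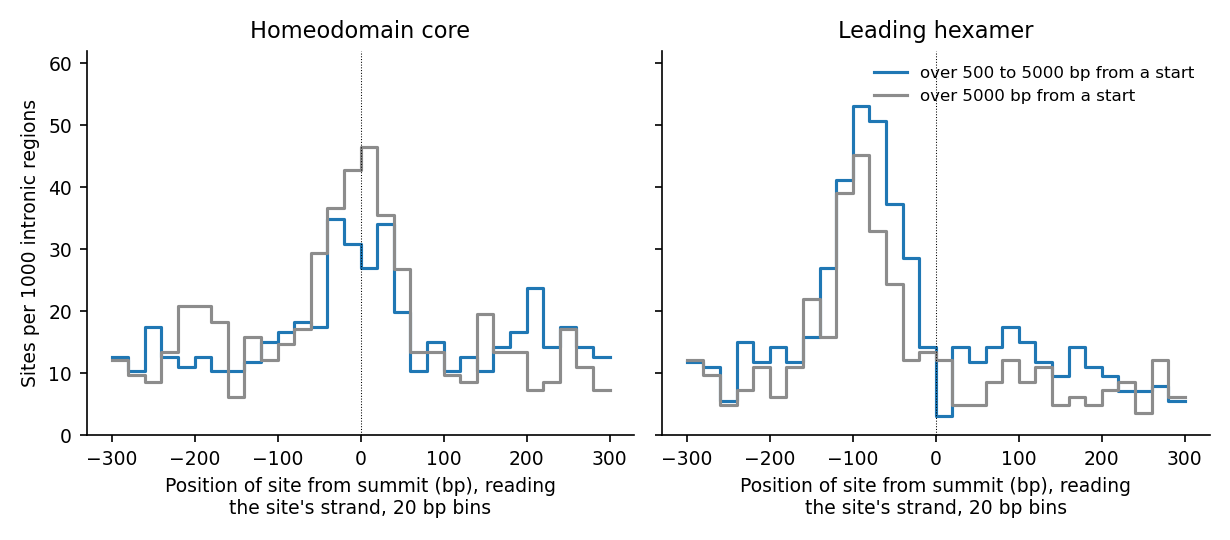
Sites per 1000 regions in 20-bp bins (vertical axis) against the position of the site from the summit in bp, read on the site's own strand (horizontal axis), for TAATTA (left) and ACAGTG (right). Blue is the intronic regions within 5000 bp of a start and grey those farther away. TAATTA, which reads the same on both strands and is placed on the plus strand, is highest within 40 bp of the summit, and ACAGTG peaks 80 to 100 bp before it in blue and grey alike.

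The bases beside ACAGTG were uneven. Over its 305 occurrences the next base was G in 49.2%, and the second base before it was G in 42.3%, with T in 37.4% just before it. By signal, ACAGTG was in 15.8% (12.2 to 20.3%) of windows in the lowest 25% by signal and 24.4% (19.96 to 29.4%) in the highest 25%. TAATTA showed no such course, at 18.04, 21.9, 17.1 and 20.6% in 4 equal parts from low to high signal. By chromosome, ACAGTG was in 28.3% (22.9 to 34.3%) of windows on X and in 15.9 to 20.6% on the 4 large autosomal arms.

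Windows with and without ACAGTG were also compared by replicate. The signal of replicate 1 was the higher in 133 of 209 regions with ACAGTG and no TAATTA (63.6%), in 91 of 205 with TAATTA and no ACAGTG (44.4%) and in 401 of 803 with neither (49.9%), with median log2 ratios of 0.11, -0.07 and 0.00 and SDs of 0.41 to 0.56. ACAGTG was in 25.2% (21.8 to 29.0%) of the regions in both lists, 14.5% (9.84 to 20.8%) of those only in the list of replicate 1 12.7% (9.01 to 17.5%) of those only in that of replicate 2 and 18.5% (14.6 to 23.1%) of those in neither. Both sites occurred together in 38 windows. The part of the libraries in this was not tested.

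ACAGTG was more frequent near a start than farther into introns, 19.8% (17.7 to 22.1%) against 13.6% (11.4 to 16.1%), but did not pass over all 2088 features (exact 2-sided Fisher test, p = 0.000233, adjusted p = 0.137). Against those 818 regions no hexamer or site was called in either direction (0% higher and 0% lower), while 66 higher and 65 lower had an unadjusted p under 0.05. TGATAA (20.2 against 13.3%), CAGTAA (10.2 against 5.50%) and ACTGTA (14.3 against 8.92%) had p-values as low as that of ACAGTG (exact Fisher tests, adjusted p from 0.118 to 0.137), and those lower were led by ACCCCT (4.12 against 7.58%, adjusted p = 0.348). Without replicate 1, ACAGTG was called at 20.2 against 11.96% (exact Fisher test, adjusted p = 0.046), but not without replicate 2, at 22.4 against 16.6% (exact Fisher test, adjusted p = 0.918). In the optimal list TGATAA (adjusted p = 0.0398) and ACTGTA (adjusted p = 0.0456) were called by the same exact test. ACACTG was level, 14.8% in both. TAATTA was at 19.4% (17.3 to 21.7%) near a start and 22.6% (19.9 to 25.6%) farther away (exact Fisher test, adjusted p = 0.818).

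Intergenic regions at the same distance and regions at starts were compared the same way, a choice made after the files had been seen. Against the 518 intergenic regions again no feature was called (0% higher and 0% lower, with 64 and 90 at an unadjusted p under 0.05), with ACAGTG at 13.5% there (exact Fisher test, adjusted p = 0.38). Against the 1537 regions at starts, 57 (2.73%) were more frequent in the introns and 64 (3.07%) less. TATCGATA, the site of DREF, a factor of housekeeping promoters, was in 0.238% of intronic windows and 4.49% at starts (exact Fisher test, adjusted p = 7.72e-12), and CATTAG was the leading one in the other direction, 12.7 against 6.57% (adjusted p = 2.43e-05). ACAGTG (16.9% at starts, exact Fisher test, adjusted p = 0.235) and TAATTA (17.7%, adjusted p = 0.567) did not pass.

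**Figure D5:**
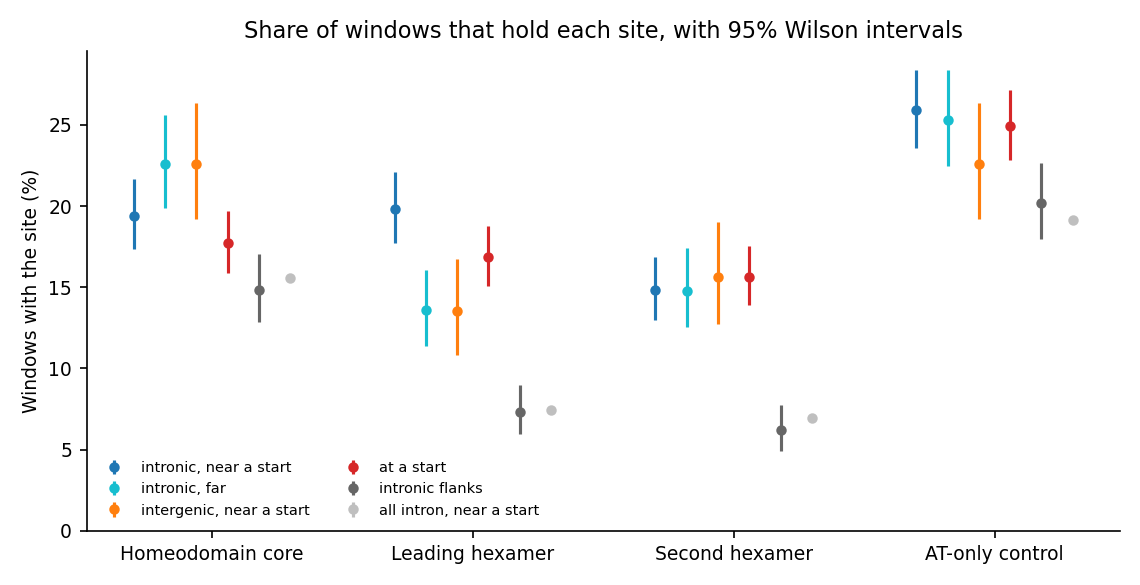
Share of windows of 201 bases that hold a site (vertical axis, %) with 95% Wilson intervals, for TAATTA (homeodomain core), ACAGTG (leading hexamer), ACACTG (second hexamer) and AATATT (AT-only control). Colours give the summit windows of the intronic regions near a start, 3 other classes of region, the intronic flanks and windows tiled over all qualifying intron. The blue points of all 4 sites lie above their flanks, and ACAGTG is highest, at 19.8%, in the intronic regions near a start. With the main settings, its difference from none of the 3 other classes of region passed the exact Fisher test.

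Repeated sequence was rare at the summits. A copy elsewhere on the 6 chromosomes, aligned over at least 100 bases at 80% identity or more, was found for 1 of 1133 summit windows (0.0883%, 0.0156 to 0.498%) and 25 of their flanks (2.21%, 1.499 to 3.24%), a difference past the exact 2-sided sign test (p = 8.05e-07). Among introns more than 5000 bp from a start, 1 of 818 summit windows had one. The sources used here do not give the handling of reads with more than 1 possible position.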

How the data were processed

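The deposited files are peak lists on dm6, per the labels, for each replicate and for both together. The authors deposited for every peak a signal value from their peak caller and the offset of its summit. The sources used here give neither the aligner and caller nor the scaling between lists, and the read depth is unknown, so intervals (95% Wilson for shares, exact Poisson for densities) cover counts of regions only. Of 5026 peaks in the conservative list, 5024 lay on 2L, 2R, 3L, 3R, 4 and X, and merged into 4781 regions. Positions used Ensembl release 115 (BDGP6.54), sequences the RefSeq Release 6 genome. Replicate signal is that of the strongest candidate peak overlapping a region by at least 1 bp. Python 3.11.15, SciPy 1.17.1 and BLAST+ 2.17.0 were used. Flanks lay on the side away from the nearest start where both sides qualified, and 129 regions had none. The sign test was checked on windows with planted hexamers.

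The regions and gene lists were chosen with earlier results of these data known. Named genes are the hosts of the 20 strongest regions in both lists, the 10 with most regions, the 3 strongest regions of each list and Awh. Of these, 1 gene and 1 sequence chosen for display are not reported here. Named hexamers are those of lowest p in each comparison. Alternatives changed the list, merging, threshold, starts, window, flank, copies and host transcript. P-values reflect the spread over regions of the same 2 embryo collections, not over new collections.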

Additional observations from a re-analysis of the deposited data

How the results depend on the processing

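The 1262 regions became 767 without replicate 2, 951 without replicate 1, and 637 when the stronger 50% of all regions was used. Their density, 56.3 per Mb, became 63.5 in the optimal list and 28.4 in the stronger 50%, and 34.2 to 42.4 without a replicate. The share in both lists was 38.4% in the optimal list and 79.8% in the stronger 50%, where the difference from far introns (75.8%) was no longer called. First introns held 73.5% in the stronger 50% and 55.3% with the longest transcript. TAATTA, not called with the main settings, was called in the optimal list (20.4%, adjusted p = 0.0194), with 50 bp on either side (14.2%), without windows that have copies (20.2%, adjusted p = 0.0423), with flanks 2000 bp away (19.1%, adjusted p = 0.0076), flanks toward the start (20.04%, adjusted p = 0.0295) and any flank sequence (19.4%, adjusted p = 0.0107), all by exact sign test. It ranged from 19.2 to 20.2% without a replicate, with no call. AATATT, the AT-only control, was called in the optimal list (24.2%, adjusted p = 0.0389), with starts of all transcripts (25.7%, adjusted p = 0.0426), with flanks 2000 bp away (24.8%, adjusted p = 0.000132) and with any flank sequence (25.9%, adjusted p = 0.000757), by the same exact test. The 28 hexamers and sites higher than flanks became 10 with 50 bp, 50 with 200 bp and 77 with any flank sequence, and 11 to 25 without a replicate. The 21 lower became 12 in the stronger 50%, 7 with 50 bp, 13 with flanks toward the start and 70 with any flank sequence, and 6 to 19 without a replicate. Leaving out flanks near a start or in a bound region, an alternative chosen after seeing the data, gave 26 and 23. Against far introns 2 were higher in the optimal list, and 0 to 1 without a replicate. Against starts, the 57 higher became 96 in the optimal list, 8 in the stronger 50% and 6 with 50 bp, and the 64 lower became 109, 19 and 11; without a replicate they were 12 to 76 and 27 to 63. ACAGTG ranked first among hexamers higher at summits in every setting run except 50 bp on either side. The copy test kept its call in all 10 alternatives. Several settings leave smaller numbers of regions, and the causes of the changes were not tested. No paired analysis was possible because there is 1 group.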

Other observations

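In 3 of the intronic regions the signal of the joint list was under 30. The region in CG13917 (chr3L:1587683-1588012) had 4.36 in the joint list and 113 and 57.1 in replicates 1 and 2. Rgl (chr3L:13920327-13920656) had 26.2, beside 86.2 and 30.03, and CG7536 (chrX:18083889-18084218) had 24.2, beside 35.6 and 31.0. These were picked out after their values were seen.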
